A study of Mus musculus with 2 samples.

Results

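Ferritin and the enzymes that remove superoxide and peroxides were followed as 10 genes: the ferritin chains Ftl1 and Fth1, the peroxiredoxins Prdx1, Prdx2 and Prdx5, the superoxide dismutases Sod1 and Sod2, the glutathione peroxidases Gpx1 and Gpx4, and thioredoxin, Txn1. They were chosen by gene family and picked out by Ensembl identifier, and all 10 were present among the 43346 genes of each gene table. The RNA came from newborn mouse forebrain, strain B6NCrl, at postnatal day 0, with 1 library from pup 1 and 1 from pup 3. Each library was made by a Smart-seq protocol from 13 pg of RNA over 200 nt in length, an amount equal to 1 cell. The RNA was extracted from whole tissue, so a level is an average over all cell types, and fewer cells of a type cannot be told apart from less RNA per cell. The pups form 1 group with no treatment, genotype contrast or recorded sex, and a single donor identifier is recorded for both. With 1 library per pup, differences between them could not be tested, and animal and technical spread are not separated. Values are TPM, the transcript abundance scale that corrects for transcript length, for pup 1 and pup 3 or as mean ± SD of both (n = 2).

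Cells hold iron in ferritin, a hollow shell of heavy and light chains, because free ferrous iron reacts with hydrogen peroxide to give hydroxyl radicals. Superoxide dismutases turn superoxide into hydrogen peroxide, which peroxiredoxins and glutathione peroxidases then reduce, with electrons from thioredoxin or glutathione. The brain consumes much oxygen and is rich in polyunsaturated lipids, and Gpx4 is known as the enzyme that reduces lipid peroxides and holds back ferroptosis, an iron-dependent form of cell death.

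Expected read counts totalled 41082811 in pup 1 and 29881397 in pup 3. Spike-ins took 4.46% and 7.30% of TPM, and mitochondrially encoded genes 5.02% and 6.003%. Forebrain and neuronal markers were present: 7 of 10 listed forebrain genes and 9 of 10 neuronal genes reached 1 TPM in both pups, among them Neurod6 at 272 and 456 TPM. The forebrain transcription factor gene Dlx2 had 0 reads in both.

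Summed, the 10 genes made up 1.15% of all TPM in pup 1, against 1.28% in pup 3 (1.22% ± 0.0930). Ferritin made up most of that, 64.0% of the summed level in pup 1 and 58.8% in pup 3. Peroxiredoxins followed with 14.9% and 21.3%. Superoxide dismutases took 13.1% and 5.96%, glutathione peroxidases 6.49% and 11.6%, and Txn1 1.48% and 2.37%. Superoxide dismutases thus outranked glutathione peroxidases in pup 1, and the order was turned round in pup 3. All 10 genes were found in both pups at 1 TPM or more. The background for this was 24.7% of 21461 nuclear protein-coding genes, 53.3% of the 9953 found in either pup, 95.6% of the 2797 genes at a mean of 50 TPM or more, and 99.9% of the 736 at 200 TPM or more. All of the 10 genes but Sod2 reached both of those means.

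Ferritin mRNAs are known for a stem-loop near their 5′ end, the iron-responsive element, which iron regulatory proteins bind when iron is scarce to block translation. Its loop carries CAGTGN. The sites below are shown because both ferritin mRNAs carry this loop and mRNA level alone does not give protein output for them. They are 30-base stretches of the 5′ untranslated regions in GENCODE M21 transcripts (mm10 assembly), 5′ to 3′ along the mRNA, with CAGTGN in capitals.
Fth1-201, chr19:9982732-9982761, plus strand: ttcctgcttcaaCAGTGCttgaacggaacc
Ftl1-201, chr7:45459778-45459807, minus strand: gtcttgcttcaaCAGTGTttgaacggaaca
The stretches had the same base at 26 of 30 positions. Both were cut around CAGTGN, so its fixed letters match by selection. The whole coding sequences of the chains were 63.6% identical and their residues 50.8%, a measure unlike that of a short window. CAGTGN alone is common: it occurred in 25.1% of 50507 5′ untranslated regions of protein-coding transcripts, so the letters by themselves do not mark such an element.

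Ftl1, the light chain that aids mineral formation inside the shell (ENSMUSG00000050708, mm10 chromosome 7, 45457944 to 45459884), was the highest of the 10 and the 6th among nuclear protein-coding genes. It stood at 4599.5 TPM in pup 1, against 5395 TPM in pup 3, a mean of 4997 ± 563. Its deposited 95% credibility bounds, which cover the assignment and counting of reads only, were 4477 to 4534 TPM and 5239 to 5309 TPM. These bounds surround a posterior mean, and the deposited TPM itself can lie just outside them, as here. Fth1, the heavy chain whose ferroxidase site oxidises ferrous iron (ENSMUSG00000024661, chromosome 19, 9980598 to 9985098), was at 2781 TPM in pup 1, against 2157 TPM in pup 3, a mean of 2469 ± 441 and rank 22. The chains therefore lay in opposite directions between the pups. For Ftl1 most of the gap lay in a minor transcript without a GENCODE M21 match, ENSMUST00000124261, at 115 and 717 TPM. The main transcript, Ftl1-201, was at 4346 and 4535 TPM. The ratio of Fth1 to Ftl1 was 0.605 in pup 1 and 0.400 in pup 3, while their sum on TPM hardly differed, at 7381 and 7553 TPM. That closeness depends on the scaling, since on FPKM and CPM both chains moved toward pup 3. Log2 ratios of pup 1 to pup 3 were then -0.49 and -0.48 for Ftl1 and 0.10 and 0.07 for Fth1.

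Peroxiredoxins reduce peroxides with a cysteine that is first oxidised and then restored through a partner cysteine by thioredoxin. The coding stretches around both cysteine codons of Prdx1 and Prdx2 are shown because these genes differed in how far the pups were apart, although 74.6% of their residues are identical. Both codons lie in a Val-Cys-Pro motif, here with the cysteine codon in capitals (GENCODE M21, plus strand).
Prdx1-204, codon 52, chr4:116691796-116691852: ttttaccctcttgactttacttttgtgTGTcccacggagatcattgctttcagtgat
Prdx2-208, codon 51, chr8:84970456-84970512: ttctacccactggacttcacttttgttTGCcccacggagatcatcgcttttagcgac
Prdx1-204, codon 173, across an intron within chr4:116693823-116699202: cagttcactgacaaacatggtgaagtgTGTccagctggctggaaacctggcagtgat
Prdx2-208, codon 172, across an intron within chr8:84971668-84974031: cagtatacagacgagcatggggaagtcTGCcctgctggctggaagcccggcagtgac
Prdx2, abundant in neurons and red blood cells (ENSMUSG00000005161, chromosome 8, 84969587 to 84974834), was at 959 TPM in pup 1, against 1304 TPM in pup 3, a mean of 1131 ± 245. Prdx1, a widely expressed cytosolic form (ENSMUSG00000028691, chromosome 4, 116685544 to 116700822), was at 446 TPM in pup 1, against 1007 TPM in pup 3 (727 ± 397). Both were higher in pup 3, but the pups were 2.26-fold apart in Prdx1 and 1.36-fold in Prdx2. The ratio of Prdx2 to Prdx1 was thus 2.15 in pup 1 and 1.29 in pup 3. Prdx5, which works in mitochondria, peroxisomes and cytosol (ENSMUSG00000024953, chromosome 19, 6906697 to 6910106), was at 317 TPM in pup 1, against 422 TPM in pup 3 (369 ± 74.3). It shared 25.4% of its residues with Prdx1.

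Both superoxide dismutases were higher in pup 1, whereas the peroxiredoxins, glutathione peroxidases and Txn1 were higher in pup 3. Sod1, the copper and zinc enzyme of the cytosol (ENSMUSG00000022982, chromosome 16, 90220754 to 90226329), was at 1463 TPM in pup 1, against 737 TPM in pup 3, a mean of 1100 ± 513. The pups lay 1.99-fold apart. Sod2, the manganese enzyme of the mitochondrial matrix (ENSMUSG00000006818, chromosome 17, 13006846 to 13040063), was the lowest of the 10, at 46.4 TPM in pup 1, against 28.4 TPM in pup 3 (37.4 ± 12.7). The ratio of Sod1 to Sod2 was 31.6 in pup 1 and 26.0 in pup 3. Per read the gap was smaller, 21234 against 4583 reads in pup 1 and 9338 against 2448 reads in pup 3, because the listed Sod2 transcript is 3824 bases long and that of Sod1 646 bases. GENCODE M21 gives the same Sod2 transcript 5861 bases, so its TPM depends on the annotation.

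Gpx1 and Gpx4 are selenoproteins: a TGA codon inside their reading frame is read as selenocysteine, the residue that attacks the peroxide. That codon is in capitals below, with the coding sequence on either side (GENCODE M21, plus strand), because it sets these enzymes apart from the cysteine-based peroxiredoxins above.
Gpx1-201, codon 47, chr9:108339421-108339483: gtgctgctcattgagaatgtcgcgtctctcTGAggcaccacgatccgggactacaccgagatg
Gpx4-202, codon 73, chr10:80054707-80054769: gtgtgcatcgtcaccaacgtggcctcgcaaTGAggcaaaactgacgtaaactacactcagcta
Gpx4 (ENSMUSG00000075706, chromosome 10, 80047166 to 80056439) was at 504 TPM in pup 1, against 920.2 TPM in pup 3, a mean of 712 ± 295. Gpx1, which reduces hydrogen peroxide in cytosol and mitochondria (ENSMUSG00000063856, chromosome 9, 108338903 to 108340343), was at 244 TPM in pup 1, against 568 TPM in pup 3 (406 ± 229). Both were higher in pup 3, Gpx1 by 2.32-fold and Gpx4 by 1.83-fold, and Gpx4 exceeded Gpx1 in each pup. Txn1, the cytosolic electron donor to peroxiredoxins (ENSMUSG00000028367, chromosome 4, 57943373 to 57956411), also lay higher in pup 3, at 170.2 TPM in pup 1, against 305 TPM in pup 3 (237 ± 95.0). Its redox-active pair of cysteines lies in a Cys-Gly-Pro-Cys motif, shown with both cysteine codons in capitals since peroxiredoxins are recycled through it.
Txn1-201, codons 32 to 35, chr4:57951797-57951856, minus strand: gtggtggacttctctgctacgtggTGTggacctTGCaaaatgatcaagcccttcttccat

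In order of mean TPM the genes ran Ftl1, Fth1, Prdx2, Sod1, Prdx1, Gpx4, Gpx1, Prdx5, Txn1 and Sod2. Of the 9 adjacent pairs, 4 were apart, meaning that both pups' values of the higher gene exceeded both of the lower: Ftl1 over Fth1, Fth1 over Prdx2, Prdx5 over Txn1, and Txn1 over Sod2. The middle of the order, from Prdx2 to Prdx5, held 5 adjacent pairs whose values overlapped. Sod1, for instance, was above Prdx2 in pup 1 and below it in pup 3.

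**Figure D1:**
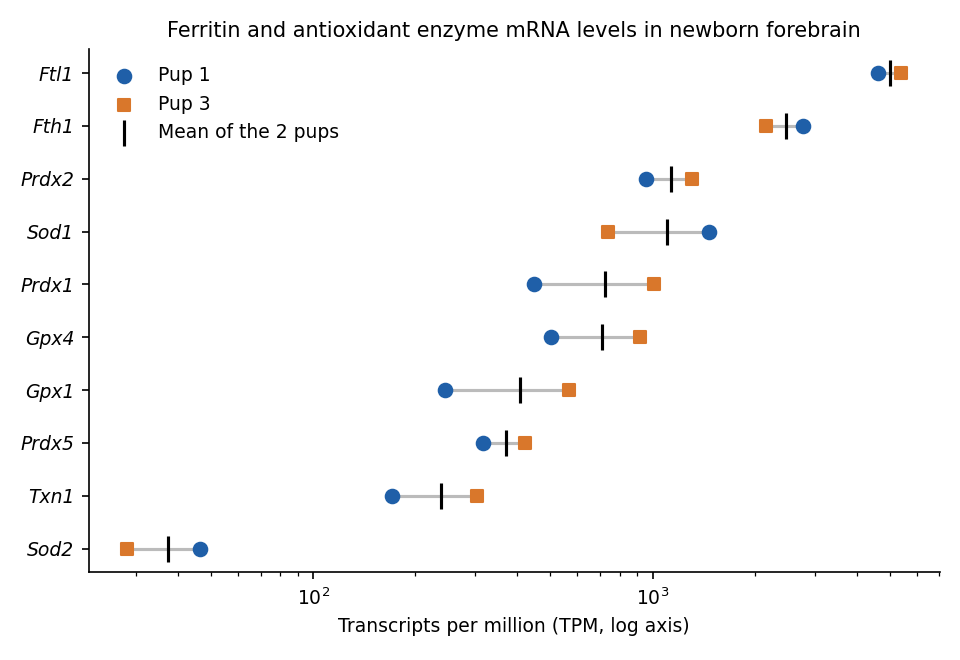
Level of each of the 10 genes in TPM on a log axis, with a circle for pup 1, a square for pup 3 and a bar at the mean of both. Ftl1 and Fth1 lie above the other 8 genes in both pups, Sod2 lies below all others, and circle and square change sides between Fth1, Sod1 and Sod2 (pup 1 higher) and the other 7 (pup 3 higher).

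Between the pups, 3 genes were higher in pup 1 (Fth1, Sod1 and Sod2) and 7 in pup 3 (Ftl1, Prdx1, Prdx2, Prdx5, Gpx1, Gpx4 and Txn1). On the scale of log2 of TPM + 1, the ratio of pup 1 to pup 3 had a median of -0.43 over the 10 genes, against -0.12 over nuclear protein-coding genes at a mean of 50 TPM or more and -0.17 at 200 TPM or more. Of the genes at 50 TPM or more, 53.4% were higher in pup 3, and of those at 200 TPM or more, 57.1%. Prdx1 (log2 ratio -1.17) and Gpx1 (-1.21) were the 2 genes more than 2-fold apart, and both were higher in pup 3. Such gaps were common: 43.1% of genes at 50 TPM or more and 27.6% at 200 TPM or more were over 2-fold apart, and 23.4% and 15.1% were so with pup 3 higher, against 19.7% and 12.5% with pup 1 higher. Sod1 lay just inside the 2-fold line at 0.99, and Ftl1 was closest to no difference at -0.23, although on FPKM and CPM Fth1 was closest, at 0.10 and 0.07. Credibility bounds of the pups did not overlap for any of the 10, as for 93.7% of genes at 50 TPM or more and 95.7% at 200 TPM or more. These bounds hold no spread among animals.

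**Figure D2:**
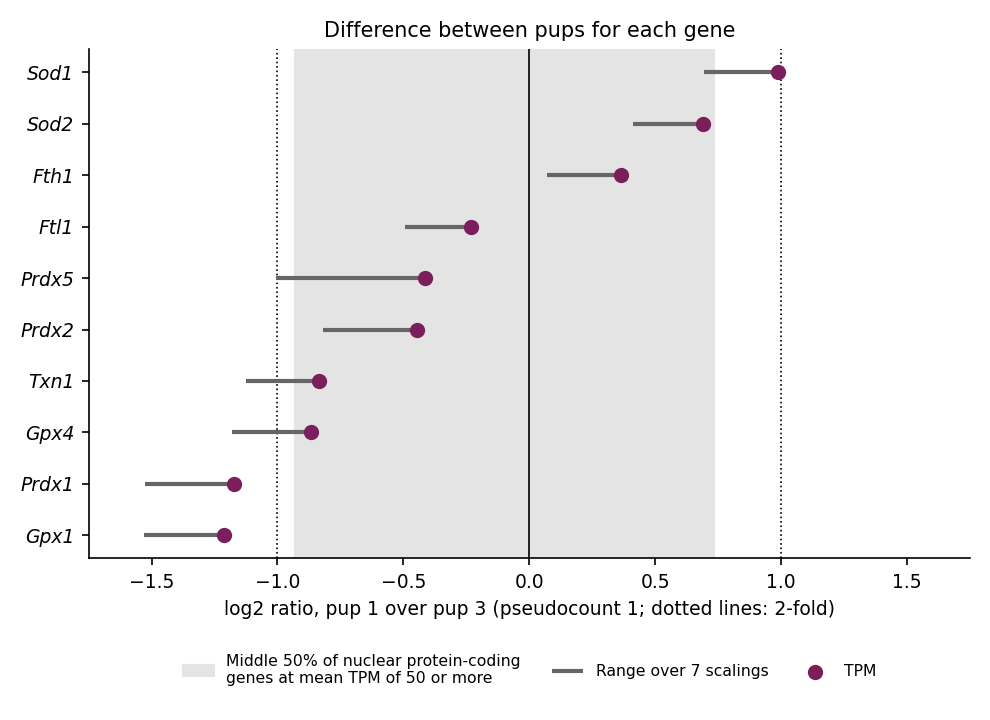
The log2 ratio of pup 1 to pup 3 for each gene on TPM (dots) and its range over 7 scalings (lines), beside the middle 50% of nuclear protein-coding genes at a mean of 50 TPM or more (grey, -0.93 to 0.73) and the 2-fold limits (dotted). Gpx1 and Prdx1 lie beyond the lower 2-fold limit and Sod1 lies at the upper one, and no line crosses 0.

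The direction of each of the 10 genes was the same under 7 scalings, namely TPM, posterior mean TPM, TPM without spike-ins and mitochondrial genes, FPKM, CPM, CPM with edgeR's TMM factors and DESeq2's size factors. FPKM and CPM moved the median of the genes at 50 TPM or more toward pup 3, to -0.38 and -0.34. The median of the 10 genes, -0.43 on TPM, was -0.69 on FPKM and -0.91 on CPM. With TMM and DESeq2 factors it was -0.67 and -0.68, while the median of the genes at 50 TPM or more stayed at -0.10 and -0.11. On FPKM and CPM, 4 genes (Gpx1, Gpx4, Prdx1 and Txn1) and 5 genes (those 4 and Prdx5) passed 2-fold, all higher in pup 3. The background shares passing 2-fold in either direction stayed between 42.8% and 45.8% over the 7 scalings. The background share with pup 3 higher was not counted on FPKM or CPM, where it could differ from that on TPM.

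Processed copies of these genes took few reads. Among 14 pseudogenes or copies, a set chosen after the data were seen, at 90% identity or more over at least 50% of a coding sequence, 10 had reads. The Ftl1 copies summed to 80.2 TPM in pup 1, against 119 TPM in pup 3, or 1.74% and 2.20% of Ftl1. Nearly all of that was Ftl1-ps1, which is annotated as protein-coding, is 99.6% identical to the Ftl1 coding sequence and stood at 76.7 and 114 TPM. Reads could be split wrongly between such near-identical sequences. Copies of Sod1 came to 1.15% and 1.08% of their parent, those of Prdx2 to 1.08% and 0.583%, and those of Fth1, Prdx1 and Txn1 to less than 1% each. None was listed for Prdx5, Sod2, Gpx1 or Gpx4.

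Fth1, Sod1, Sod2 and Txn1 had a single listed transcript each, and the other 6 genes had 4 to 8. Ftl1-201 held 94.5% of Ftl1 in pup 1 and 84.1% in pup 3, and a shorter transcript, ENSMUST00000124261, held 2.50% and 13.3%. It had no match in GENCODE M21, so its kind is not given here. Gpx4 was divided almost equally: Gpx4-207 held 54.2% and 46.9%, and Gpx4-202, whose 197 residues include the mitochondrial leader, held 45.6% and 52.2%. Gpx4-201, the 253-residue nuclear form known from sperm, had 13.7 reads in pup 1 and 4.23 in pup 3, or 0.115% and 0.0217% of Gpx4. For Gpx1, the full-length Gpx1-201 held 50.9% and 55.3%, and Gpx1-204, with 145 residues instead of 201, held 42.5% and 41.0%. The reading frame annotated for Gpx1-204 has no in-frame TGA. Only annotated frames were searched, so whether this transcript carries the selenocysteine codon upstream of its annotated start was not tested.

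Peroxiredoxin transcripts were more mixed. Prdx5-203 held 47.8% in pup 1 and 46.2% in pup 3. The shorter Prdx5-204 held 40.8% in pup 1 and 23.1% in pup 3, whereas Prdx5-201 held 11.2% and 30.4%, so these changed places. Prdx2-208 held 48.5% and 57.1% of Prdx2, Prdx2-201 held 23.3% and 22.5%, and Prdx2-205, an intron-retaining form, 15.6% and 12.4%. Prdx1-201 led Prdx1 in TPM with 54.1% and 48.6%, but its coding sequence is marked incomplete and it is the shortest with reads apart from a retained-intron form. By reads Prdx1-204 led with 55.4% and 57.5%, so the leading transcript of Prdx1 depends on the correction for length. Shares rest on the division of reads among overlapping transcripts.

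**Figure D3:**
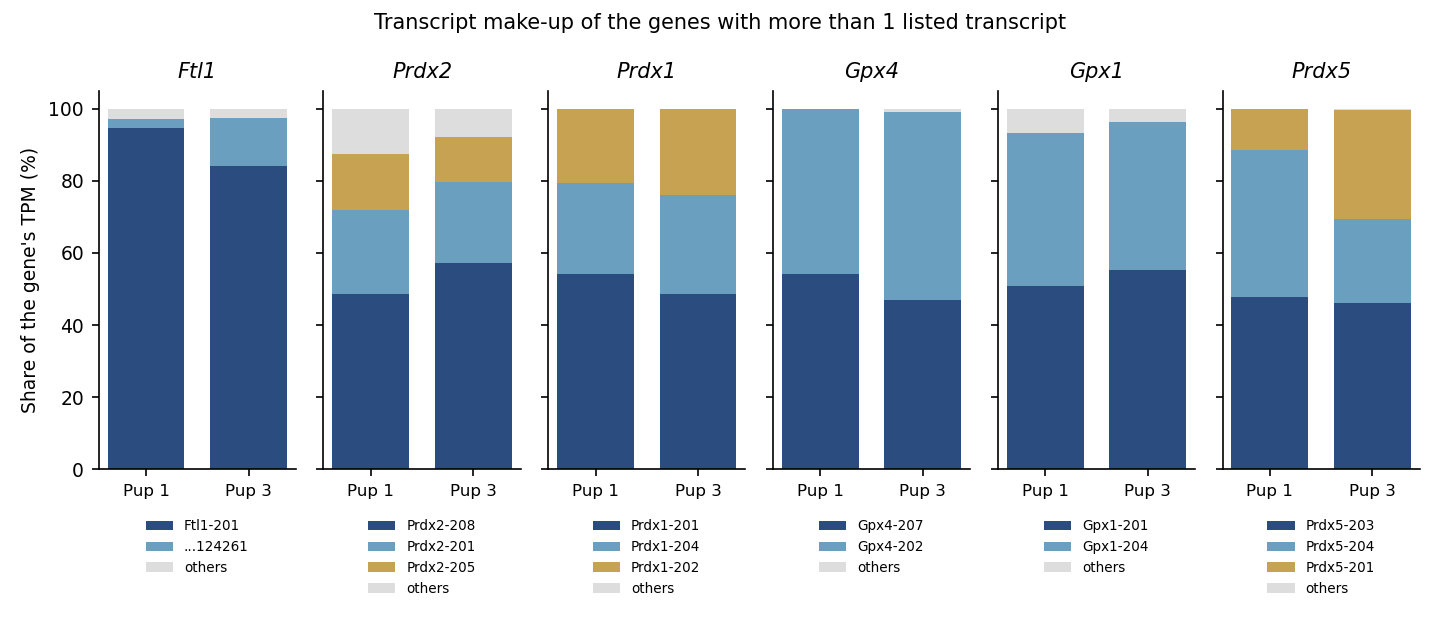
Share of each gene's TPM, in percent, by transcript, with pup 1 left and pup 3 right. Colours stand for transcripts holding 10% or more in either pup, and grey stands for all others. Ftl1 is dominated by Ftl1-201, Gpx4 and Gpx1 are split between 2 transcripts each, and Prdx5-204 and Prdx5-201 change places between the pups.

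The promoter windows in RefSeq (GRCm38.p6, 250 bases before to 50 after each start) cover all 10 genes in 14 windows. NRF2, the transcription factor that drives many antioxidant genes, is known to bind the antioxidant response element, whose core TGACNNNGC was searched on both strands. It occurred in 2 of the 14 windows (14.3%), those of Prdx1 and Sod1, against 12.4% of all 32851 windows. TATAAA, the core of a TATA box, occurred on either strand in 5 of the 14 windows (35.7%), 1 each of Fth1, Ftl1, Prdx1, Sod1 and Txn1, against 13.6% of all windows. The stretches upstream of the start are shown for Prdx1 and Sod1, which held both motifs and lay far apart between the pups in opposite directions. The first line of each gene marks TGACNNNGC, which is read on the opposite strand, and the second marks TATAAA. The distance on each line is that of the first capital letter. The printed stretch and its coordinates begin further upstream. The lines for Sod1 overlap.
Prdx1, from 133 bases before the start, chr4:116685446-116685505: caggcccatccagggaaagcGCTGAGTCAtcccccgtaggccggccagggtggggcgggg
Prdx1, from 29 bases before the start, chr4:116685550-116685598: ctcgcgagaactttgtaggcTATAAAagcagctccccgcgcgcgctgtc
Sod1, from 56 bases before the start, chr16:90220686-90220745: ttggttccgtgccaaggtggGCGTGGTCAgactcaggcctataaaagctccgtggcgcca
Sod1, from 37 bases before the start, chr16:90220705-90220761: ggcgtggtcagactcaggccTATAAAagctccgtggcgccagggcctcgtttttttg
A match says only that these letters are there. RefSeq places a distal start for Fth1 in addition to the main one, and the TATAAA match of Fth1 lies in that distal window, on the opposite strand. The match of Txn1 lies 160 bases before its start, and that of Ftl1 lies after its start. The share of windows with TATAAA therefore does not count TATA boxes.

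Genes that work with these 10 were taken from 10 lists with 89 genes in all. Both pups shared 43 of them at 1 TPM or more, pup 1 added 21, pup 3 added 3, and 22 were below 1 TPM in both. The 43 are 64.2% of the 67 found in either pup, against a background of 53.3%. Among all genes present in at least 1 pup, 37.6% reached 1 TPM just in pup 1 and 9.09% just in pup 3. Of the 33 listed genes at a mean of 50 TPM or more, 11 (33.3%) were over 2-fold apart, 5 higher in pup 1 and 6 in pup 3, against 43.1% of all such genes. Only 8 listed genes exceeded the mean of Txn1, and those were Selenow, Gstp1, Selenof, Park7, Idh1, Selenok, Mgst3 and Prdx6.

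**Figure D4:**
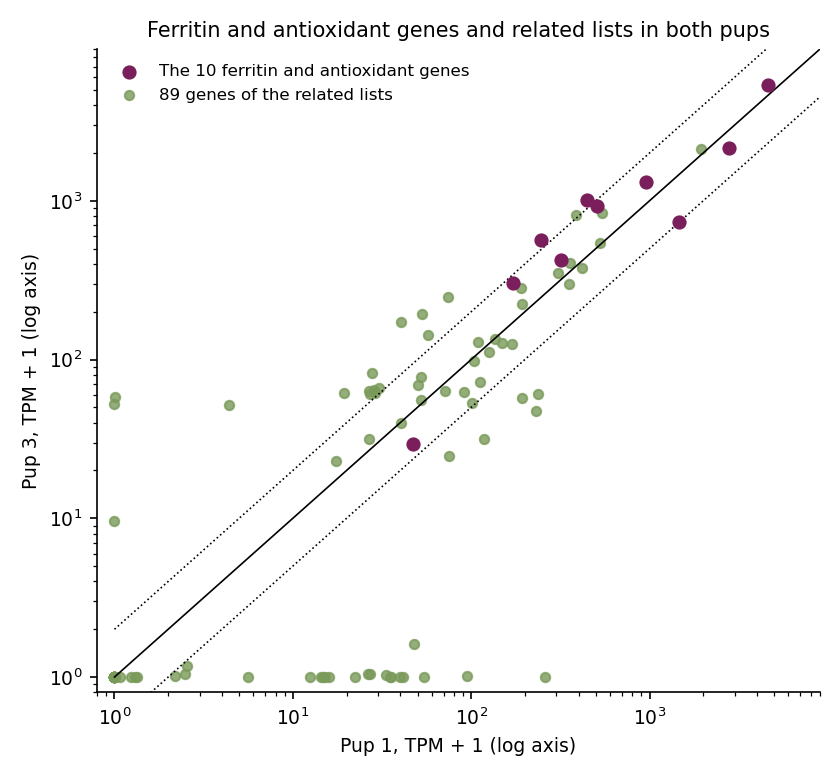
TPM + 1 in pup 1 (horizontal) and pup 3 (vertical), both on log axes, for the 10 ferritin and antioxidant genes and the 89 listed genes, with the line of equality and 2-fold limits (dotted). All 10 genes have reads in both pups and 8 lie within the 2-fold limits, whereas listed genes also lie along the lower edge (0 reads in pup 3 for 19 genes with reads in pup 1) and the left edge (0 reads in pup 1 for 2).

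The remaining peroxiredoxins were all found. Prdx6, the 1-cysteine form that also has phospholipase activity, was at 353 TPM in pup 1, against 297 TPM in pup 3, the mitochondrial Prdx3 at 147 and 125 TPM, and the endoplasmic reticulum enzyme Prdx4 at 100.1 and 52.2 TPM. All 3 were higher in pup 1, unlike Prdx1, Prdx2 and Prdx5, and each was within 2-fold. Ccs, the chaperone that loads copper into Sod1, lay against Sod1, at 26.7 TPM in pup 1, against 80.8 TPM in pup 3. The ratio of Sod1 to Ccs was therefore 54.8 and 9.12. Among other glutathione peroxidases, the secreted Gpx3 was at 51.1 and 76.5 TPM, whereas Gpx2, Gpx5 and Gpx6 had 0 reads in both pups. Gpx7 was at 47.05 TPM (1120 reads) in pup 1 and 0.62 TPM (17 reads) in pup 3, opposite in direction to Gpx1, Gpx3 and Gpx4. Gpx8 was at 16.4 and 21.9 TPM. Cat, catalase, which breaks down hydrogen peroxide in peroxisomes, was at 73.7 and 23.7 TPM. Sod3, the extracellular dismutase, had 1 read in pup 1 and 0 in pup 3.

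Of the 12 genes of the thioredoxin and glutaredoxin system, 7 were found in both pups, 1 just in pup 1 and 1 just in pup 3. The mitochondrial thioredoxin Txn2 was at 192 TPM in pup 1, against 223 TPM in pup 3, and thioredoxin reductase Txnrd1 at 49.5 and 68.0 TPM. Glutaredoxins included Glrx3 at 135 TPM in each pup, Glrx at 51.3 and 54.8 TPM, and Glrx2 at 117 and 30.5 TPM. Reads of Glrx2 lay the other way, 1482 in pup 1 and 1815 in pup 3. Txnl1, a thioredoxin-like gene, was at 93.1 TPM (6077 reads) in pup 1 and 0.02 TPM (1 read) in pup 3, and Glrx5, a mitochondrial glutaredoxin gene, was without reads in pup 1 and at 8.57 TPM in pup 3. Txnrd3, the redox protein Nxn and the sulfiredoxin gene Srxn1 had 0 reads in both pups. For NADPH supply, which feeds both reducing systems, 4 of 6 genes were found in both: Idh1 at 417 and 378 TPM, Idh2 at 108 and 128, G6pdx at 90.2 and 61.2, and Pgd at 70.6 and 62.7 TPM.

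Genes for making and recycling glutathione, the reductant used by Gpx1 and Gpx4, included 5 of 12 found in both pups, while 6 reached 1 TPM just in pup 1 and 1 had no reads. Gss, glutathione synthetase, stood at 34.7 TPM in pup 1, but had 0 reads in pup 3. With 0 set to a floor of 3 reads in that library, Gss was at least 331-fold higher in pup 1. The floor covers counting error only, and loss of RNA before sequencing, from an input of 13 pg, was not tested. That limit holds for every gene named here with reads in 1 pup alone. Among all genes found in either pup, 37.6% reached 1 TPM just in pup 1. Gclc, the catalytic subunit of the rate-limiting enzyme, was at 14.1 TPM and the reductase Gsr at 13.5 TPM in pup 1, again with 0 reads in pup 3, and the modifier subunit Gclm had 0 reads in both. Glutathione transferases were more abundant: Gstp1 was at 542 and 841 TPM, Mgst3 at 306 and 349.7, Gstm5 at 229.8 and 46.6, and Mgst1 at 73.4 and 248 TPM. Gstm1 was at 259 TPM in pup 1, but had 0 reads in pup 3. Slc3a2, a chain of the cystine transporter, was at 124 and 109.8 TPM. Slc7a11, the other chain of that transporter, was far lower, at 1.54 TPM (193 reads) in pup 1 and 0.18 TPM (37.3 reads) in pup 3.

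The list of iron uptake, storage, export and sensing had 24 genes. Both pups held 9 of these, 6 reached 1 TPM just in pup 1, and 9 stayed below it. Ncoa4, the receptor that delivers ferritin for breakdown, was at 112 TPM in pup 1, against 71.1 TPM in pup 3, and Fbxl5, which targets an iron regulatory protein for degradation in iron-replete cells, at 103 and 97.6 TPM. The iron chaperone gene Pcbp2 was at 56.1 and 141 TPM, and the heme oxygenase gene Hmox2 at 235 and 60.1 TPM. Ireb2, an iron regulatory protein that binds the ferritin element, was at 25.6 and 30.5 TPM. Aco1, the other such protein, was at 40.5 TPM in pup 1, but had 0 reads in pup 3. The iron exporter gene Slc40a1, at 13.8 TPM, and the inducible heme oxygenase gene Hmox1, at 38.7 TPM, likewise had reads in pup 1 alone. Steap2, Steap3, the mitochondrial ferritin gene Ftmt, the hormone gene Hamp, Slc25a37 and Slc25a28 had 0 reads in both. Tfrc, the transferrin receptor gene, was at 26.2 and 60.0 TPM.

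The 15 NRF2 regulators and targets divided into 4 present in both, 5 just in pup 1, 2 just in pup 3 and 4 without reads. Park7 was at 527 TPM in pup 1, against 542 TPM in pup 3, and the autophagy receptor gene Sqstm1 at 190.3 and 282 TPM. Nfe2l2, which encodes NRF2, had 94 reads (1.49 TPM) in pup 1 and 2 reads (0.05 TPM) in pup 3. Keap1, its inhibitor, was at 53.6 TPM in pup 1, but had 0 reads in pup 3, and the target gene Nqo1 was without reads in pup 1 and at 51.6 TPM in pup 3. Gclm, Srxn1, Mafk and Osgin1 had 0 reads in both.

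Gpx1 and Gpx4 compete with other selenoproteins for the same decoding machinery. Selenow was the most abundant of the listed ones, at 1936 TPM in pup 1, against 2114 TPM in pup 3. Selenof was at 385 and 809 TPM, Selenok at 357 and 402, Selenop at 168 and 123, Selenom at 192 and 56.5, and Selenos at 52.2 and 194 TPM. Sephs2, which makes the selenium donor, was at 39.7 and 172 TPM and higher in pup 3 by 4.33-fold. Of the 7 genes of this list at 50 TPM or more, 5 were higher in pup 3 and 4 were over 2-fold apart, where 53.4% and 43.1% of all genes at that mean were. Eefsec, the elongation factor for selenocysteine, had 0 reads in both pups.

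Marker genes of other cell types also differed between the pups. Red blood cells are rich in Prdx2, and the summed level of 5 erythroid genes, 4 globin genes and Alas2, was 1750.3 TPM in pup 1, against 3276 TPM in pup 3. Slc4a1, Epb42 and Slc25a37, further erythroid markers, had 0 reads in both pups. The endothelial and mural list (4 of 10 genes in both pups, Kdr at 0 in both) summed to 97.05 TPM in pup 1, against 309 TPM in pup 3. Neuronal genes summed to 11383 and 5810.5 TPM, of which Tubb3 alone gave 6275 and 1872 TPM. Without Tubb3 the sums were 5108 and 3938 TPM, and Dcx, Syt1 and Elavl3 were higher in pup 3. Microglial genes (2 of 12 in both, P2ry12, Tmem119 and Trem2 at 0 in both) summed to 315 and 116 TPM, and meningeal genes (4 of 8 in both, Lum at 0 in both) to 325 and 150 TPM. Astroglial and radial glial genes (7 of 8 in both) summed to 3646 and 4140 TPM, of which Fabp7 alone gave 1337 and 2290 TPM. Of these 8 genes, 5 were higher in pup 1, against the direction of the sum, and 3 in pup 3. Choroid plexus genes (1 of 8 in both, with Kl, Otx2, Clic6 and Cldn1 at 0) summed to 1809 and 1898 TPM. Nearly all of that was Ttr, at 1723.7 and 1897.6 TPM, while Folr1 was at 85.3 TPM in pup 1 and 0 in pup 3. Oligodendrocyte lineage genes (2 of 8 in both) summed to 107 and 63.7 TPM. Within lists the genes did not all lie one way. Hbb-bt (219.7 and 192 TPM), Alas2 (27.1 and 17.5 TPM), Pdgfrb (26.9 TPM and 0) and Cdh5 (8.21 TPM and 0) were higher in pup 1, and C1qc (0 and 49.1 TPM) and Dcn (33.4 and 69.0 TPM) in pup 3, each against the sum of its list. The part of any of these lists in the differences of the 10 genes was not tested.

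The gene nearest to each of the 10 in level was found by the distance in log2 of TPM + 1 over the 2 libraries, which is a weak measure of likeness with so few points. Ftl1 had no close neighbour: the nearest, the cyclophilin gene Ppia at 2922 and 5673 TPM, was at a distance of 0.66. For the other 9 the distance was 0.12 or less. Fth1 was nearest to Tubb5 (2636 and 2212 TPM), Prdx2 to Dynlt1b, Sod1 to Hnrnpk (1592 and 728 TPM), Prdx1 to the proteasome gene Psma7 (438 and 991 TPM), Gpx4 to Atp5g3 (514 and 925 TPM), Gpx1 to Ndufa7 (253 and 554 TPM), Prdx5 to Cyc1 (307 and 402 TPM), Txn1 to Mcrip1 and Sod2 to Ppp1r7.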

How the data were processed

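RNA from the forebrains of 2 newborn pups was sequenced as 1 library per pup. The authors deposited expected counts, estimated reads per gene or transcript with multi-mapped reads shared out, per the file headers, whose columns carry RSEM's names. Deposited TPM sums to 1000000 in each library, spike-ins included, per the file headers, and deposited FPKM is scaled by effective length and library reads. Deposited credibility bounds of TPM are on the signal scale of TPM. Assembly mm10 and annotation M4 are named in text deposited with each library. Aligner, counter, versions and strand setting: not given in the sources used here. Symbols, biotypes, coordinates and transcript sequences came from GENCODE M21 on the same assembly (42462 of 43346 genes matched by identifier without version), and promoters from RefSeq.

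A gene was called found at 1 TPM or more. Log2 ratios are of pup 1 over pup 3 with a pseudocount of 1, which understates changes of low genes, and 2-fold was the limit for calling genes apart. A count of 0 was set to a floor of 3 reads per library, expressed as TPM through effective length, which covers counting error only. No test was made, since each pup has 1 library, and spread between pups mixes animal and technical differences. Named genes were the 10 members, list genes at a mean of 50 TPM or more or with 0 reads in both pups, the nearest gene to each member, and transcripts at 10% or more of a gene. Lower genes of the lists (Ireb2, Aco1, Tfrc, Slc40a1, Hmox1, Gss, Gclc, Gsr, Slc7a11, Nfe2l2, Keap1, Nqo1, Sod3, Cat, Gpx7, Gpx8, Txnl1, Glrx5), Gpx4-201 and markers were named after their values were seen, and the neuronal sum without Tubb3 and the second background at 200 TPM were added then. Members and lists were chosen with earlier results of these data known. Protein sequences were not used here, and 1 erythroid marker is not reported here. Expected counts were rounded for edgeR 4.0.16 (TMM factors 0.919 and 1.09 over 11993 genes) and DESeq2 1.42.0 (size factors), run in R 4.3.3 and tested on simulated data. Tables and plots used pandas 2.3.3, numpy 2.4.6 and matplotlib 3.10.9 under Python 3.11.15.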

Additional observations from a re-analysis of the deposited data

How the results depend on the processing

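All 10 genes were found in both pups at thresholds of 0.1 and 10 TPM, on FPKM, posterior mean TPM and CPM, and in each pup alone (10 without replicate 1 and 10 without replicate 2). Their share of the total, 1.22%, was 0.751% on CPM and 1.38% after removal of spike-ins and mitochondrial genes, and ranged from 1.15% to 1.28% when either replicate was left out. Their median log2 ratio, -0.43 for pup 1 over pup 3, was -0.91 on CPM and -0.69 to -0.67 on FPKM and with TMM or DESeq2 factors, and the 2 genes over 2-fold apart became 4 on FPKM and 5 on CPM. The 4 adjacent pairs apart in level became 2 on CPM, which does not correct for length. Genes of the related lists numbered 46 without replicate 1 and 64 without replicate 2, against 43 found in both. Adding gene copies moved no level by more than the SD between pups; adding every similar copy was chosen after the data were seen. Of 72 alternatives for single levels and transcript shares that kept both pups, 15 moved the value by more than that SD. Leaving out 1 of 2 pups cannot move a mean that far. All 15 came from a change of unit or scale: FPKM, CPM or rescaled TPM for levels, and reads without length correction for shares. FPKM and CPM values were set against TPM as they stand, so part of such a move is the unit itself. No paired analysis was possible because both libraries belong to 1 group, with no groups to pair. With 1 library per pup, no interval for a difference between animals can be given.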
